A study of Mus musculus with 18 samples.

Results

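The comparison described here is Brca2/Trp53 mutant (KO) against wildtype (WT) mature luminal cells of the mouse mammary gland, across every expressed gene. The rule took the 3 KO and the 3 WT libraries whose column carries the mature luminal gate, which is 6 of the 18 libraries of the series. Of 27179 genes in the deposited count table, 16466 passed the filter on low counts and were tested. The KO mice were MMTV-cre(T/+) with Brca2(delta/delta) and Trp53(delta/+), the controls were labelled wildtype, and all were females of 14 weeks, with 3 mice per genotype. Each mouse also gave a basal and a luminal progenitor (LP) library, and cells were sorted by flow cytometry before bulk RNA-seq. The titles call the mutant a knockdown and the genotype label a knockout. All 18 libraries, the WT ones included, carry the same strain label with floxed alleles of both genes and MMTVcre, so whether the WT mice carried Cre or were littermates is not given. Strain background and genotype therefore cannot be told apart. Cre is driven by the MMTV promoter, which is active in mammary epithelium, so the alleles need not be recombined in every sorted cell.

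Mature luminal (ML) cells line the inner face of the mammary ducts and are the hormone-sensing cells of the gland. They carry the receptors for oestrogen, progesterone and prolactin and pass the hormonal signal to neighbouring cells by secreted factors such as amphiregulin, RANKL and Wnt4. Luminal progenitors share the inner layer but lack most hormone receptors and can form milk-secreting cells, while basal cells form the contractile outer layer. BRCA2 acts in the repair of broken DNA by homologous recombination, and p53 is the transcription factor that stops or removes cells with damaged DNA.

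The 3 ML KO libraries held 8760092 to 30546608 counts and the 3 ML WT libraries 5973389 to 20326052, and levels below are CPM, counts scaled to a common library size with the TMM factors of edgeR. Expression of markers matched the gate: summed over 25 mature luminal markers, the ML WT libraries ranged from 11434 to 13669.6 CPM, the LP WT libraries from 1479 to 2359 and the basal WT libraries from 1237 to 1535. ML KO replicate 1 stood apart from the other 2 KO libraries. It was the highest of the 3 KO libraries for 1262 of the 2059 genes called higher in KO (61.3%) and the lowest for 360 of the 432 called lower (83.3%), against 36.9% and 44.5% of all genes tested. It is also the shallowest of the 3 KO libraries. Calls of named genes that ended without it are given beside them.

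Genes higher in KO outnumbered genes lower in KO. edgeR's quasi-likelihood test called 2491 of the 16466 genes at an adjusted p under 0.05 (15.1%), with 2059 higher in KO (12.5%) and 432 lower (2.62%). The median log2 fold change over all genes tested was 0.02, and the 3 KO libraries did not overlap the 3 WT libraries for 6229 genes (37.8%). The count of higher genes ranged from 1496 to 1902 when 1 ML library was left out. The count of lower genes was less stable: it was 92 without KO replicate 1, 165 without WT replicate 2, 242 without WT replicate 1, 244 without KO replicate 2, 261 without WT replicate 3 and 395 without KO replicate 3. DESeq2 called 676 genes lower. Without KO replicate 1, 1654 genes were called in all.

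**Figure D1:**
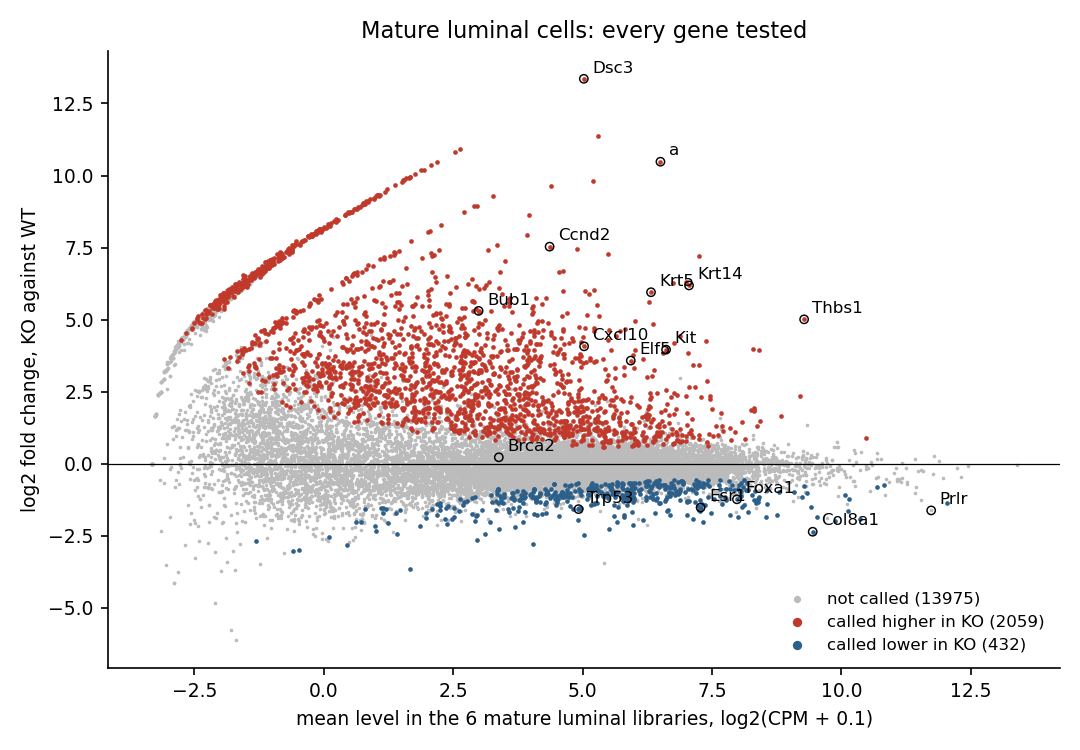
Each point is 1 of the 16466 genes tested in mature luminal cells, with its mean level over the 6 libraries as log2(CPM + 0.1) on the x axis and its log2 fold change, KO against WT, on the y axis. The 2059 genes called higher (red) spread upward to large fold changes and the 432 called lower (blue) stay closer to 0; the curved upper edge holds genes with no WT counts, whose fitted fold change depends on the prior count.

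The targeted genes were read first. Trp53 (chromosome 11, 69580348 to 69591873, GRCm38) had 14.9, 13.6 and 17.04 CPM in the KO libraries and 47.2, 49.2 and 39.6 CPM in the WT libraries. No KO library reached the lowest WT library, and the log2 fold change was -1.58 ± 0.34 (SE, n = 3 per group, adjusted p = 0.00295). Brca2 (chromosome 5) had 9.82, 15.8 and 8.03 CPM in the KO libraries and 4.75, 7.92 and 15.7 CPM in the WT libraries, and the groups overlapped (log2 fold change 0.22 ± 0.51, adjusted p = 0.822). Counts over a whole gene do not check a deletion of single exons, and the deposited table holds no exon counts, so the Brca2 label was not checked by these values. The Trp53(delta/+) label was not checked either, as counts over a gene do not give the number of alleles lost.

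Marker genes of mature luminal identity were in part lower in KO, the oestrogen receptor gene among them. Of 25 markers tested, 9 fell and 1 rose, against 2.62% and 12.5% of all genes tested. Their median log2 fold change was -0.99. Summed over the 25 markers, the KO libraries had 3869, 6147 and 6424 CPM and the WT libraries 11988, 13669.6 and 11434 CPM. The lowest WT library was above the highest KO library, and the 3 KO libraries were in turn above every LP and basal library of the series. A single gene, Prlr, carried a large part of the gap between the KO and WT sums and was not called (its levels are given below). In bulk RNA, fewer cells of a type and less RNA per cell cannot be told apart.

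Esr1, the oestrogen receptor, had 45.4, 99.4 and 95.7 CPM in the KO libraries and 267, 259 and 166 CPM in the WT libraries (log2 fold change -1.52, adjusted p = 0.0188). Foxa1, the pioneer factor that opens chromatin for it, had 59.8, 199 and 193 CPM in the KO libraries and 290.3, 359 and 417 CPM in the WT libraries (log2 fold change -1.24, adjusted p = 0.0264). Cited1, a transcriptional co-activator of hormone-responsive ducts, had 114, 194 and 277 CPM in the KO libraries and 848, 588 and 574 CPM in the WT libraries (log2 fold change -1.78, adjusted p = 0.0126). In none of these 3 genes did the KO and WT libraries overlap. Stc2, an oestrogen-induced secreted glycoprotein, had 70.4, 226 and 191 CPM in the KO libraries and 532, 795 and 433 CPM in the WT libraries (adjusted p = 0.0132). Gata3, Tph1, Spdef, Wnt4 and Cldn10 also fell, with log2 fold changes between -1.396 and -0.85 and adjusted p between 0.0308 and 0.0488. Each of these 5 lost its call when some single library was left out, WT replicate 2 among them, and without KO replicate 1 the calls of Gata3, Spdef, Wnt4 and Cldn10 ended (adjusted p = 0.135, 0.198, 0.102 and 0.217). The prolactin receptor Prlr had 462, 2029 and 2524 CPM in the KO libraries and 5094, 5557 and 4779 CPM in the WT libraries, with no overlap, but did not pass the test (adjusted p = 0.0749); DESeq2, limma voom and the fit with no filter on low counts called it lower (adjusted p = 0.0304, 0.0225 and 0.0496). The progesterone receptor Pgr had 86.6, 245 and 345 CPM in the KO libraries and 342, 431 and 159 CPM in the WT libraries and the groups overlapped (adjusted p = 0.658). KO replicate 1 was the lowest KO library for Esr1, Foxa1, Cited1, Stc2, Prlr and Pgr. Ptges, a prostaglandin synthase, was the member that rose, with 129, 60.96 and 57.9 CPM in the KO libraries and 21.2, 25.6 and 25.6 CPM in the WT libraries (adjusted p = 0.0242).

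The number of mature luminal markers called lower depended on single libraries: it was 2 without KO replicate 1, 1 without WT replicate 2, 4 without WT replicate 1, 5 without WT replicate 3, 7 without KO replicate 2 and 8 without KO replicate 3. DESeq2 called 11 and limma voom 14. The Esr1 call ended without KO replicate 1, WT replicate 1 or WT replicate 2 (adjusted p 0.06098 to 0.104). The Foxa1 call ended without KO replicate 1, WT replicate 2 or WT replicate 3 (adjusted p 0.0679 to 0.101), and in the fit of the 6 ML libraries alone and after thinning to the smallest library (adjusted p 0.0706 to 0.0887). Cited1 lost its call without KO replicate 1 (adjusted p = 0.07499), Stc2 without KO replicate 1 or WT replicate 2 (adjusted p 0.0658 to 0.0711), and Ptges without KO replicate 1, WT replicate 1, WT replicate 2 or WT replicate 3 (adjusted p 0.0633 to 0.146), and in limma voom (adjusted p = 0.0515).

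Luminal progenitor genes rose in the KO ML libraries. Of 24 markers tested, 19 rose and 0 fell, against 12.5% and 2.62% of all genes tested. Their median log2 fold change was 2.23 against 0.02 over all genes. The summed level was 5551, 2305 and 2515 CPM in the KO libraries against 840.4, 855 and 1073 CPM in the WT libraries. The KO libraries remained far below LP cells themselves, which ranged from 13402 to 15842 CPM in KO mice.

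Kit, the receptor tyrosine kinase used to mark progenitors, had 257, 127 and 167 CPM in the KO libraries and 11.2, 10.8 and 13.3 CPM in the WT libraries (log2 fold change 3.96 ± 0.41, adjusted p = 2.12e-06). Elf5, the transcription factor of the alveolar lineage, had 182, 50.2 and 105 CPM in the KO libraries and 6.18, 9.84 and 11.8 CPM in the WT libraries (log2 fold change 3.58 ± 0.58, adjusted p = 2.30e-04). Every KO library was above every WT library for both, and their KO means were 36.3% and 26.3% of the LP KO means. Sox10, a transcription factor of neural crest and mammary stem-like cells, had 132, 44.7 and 86.6 CPM in the KO libraries and 2.85, 3.42 and 4.02 CPM in the WT libraries (adjusted p = 3.61e-07), which is 35.1% of the LP KO mean. Lbp, the lipopolysaccharide-binding protein, had 43.2, 16.7 and 40.2 CPM in the KO libraries and 2.69, 3.67 and 1.71 CPM in the WT libraries (adjusted p = 4.25e-05). Aldh1a3, the retinaldehyde dehydrogenase of progenitors, had a KO mean of 55.1 ± 41.9 CPM (SD, n = 3) against 11.97 ± 6.36 in WT (adjusted p = 0.008298). Its call ended without KO replicate 1 or WT replicate 2 (adjusted p 0.0518 to 0.0835), and it was named after its values were seen. Members not called were Lalba, Itga2, Notch3, Ctsh and Slc34a2. The share of the LP KO level ran from 5.96% (Ltf) to 124% (Notch3), with a median of 31.97%. With KO replicate 1 left out, 13 of the 24 were called higher.

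Milk and secretory genes, made by alveolar cells, rose in part. Of 23 tested, 13 rose and 0 fell, against 12.5% and 2.62% of all genes tested. Their median log2 fold change was 2.44. This list shares members with the progenitor list, Wfdc18, Lalba and Slc34a2 among them, so the 13 are not a separate result. Muc15, a mucin of the milk fat globule, had 203, 47.9 and 147 CPM in the KO libraries and 7.44, 12.5 and 11.6 CPM in the WT libraries (adjusted p = 7.35e-05). Xdh, the xanthine oxidoreductase of the milk fat globule membrane, had 109.9, 40.6 and 94.99 CPM in the KO libraries and 7.76, 17.6 and 12.96 CPM in the WT libraries (adjusted p = 6.85e-05). Wfdc18, a whey acidic protein relative, had 598, 172 and 188 CPM in the KO libraries and 12.5, 7.42 and 29.8 CPM in the WT libraries (adjusted p = 1.58e-04). Replicate 1 was the highest KO library for each of these 3 genes. The list count was 5 without KO replicate 1, 6 without WT replicate 1 and 7 without WT replicate 2; limma voom called 7.

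**Figure D2:**
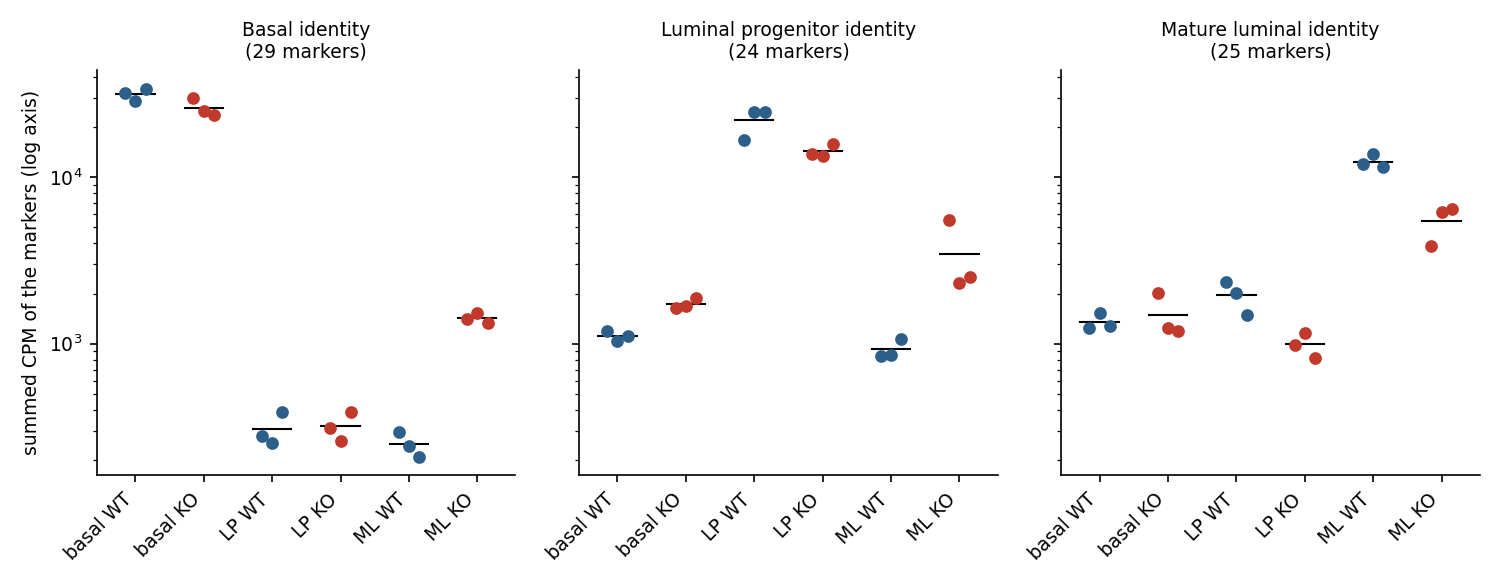
Summed CPM (log axis) of the markers of each identity list in each of the 18 libraries, with 3 points per group and a line at the group mean, KO in red and WT in blue. In ML KO libraries the basal sum (1332 to 1527 CPM) and the progenitor sum (2305 to 5551 CPM) lie above the ML WT libraries, and the mature luminal sum (3869 to 6424 CPM) lies below them.

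Basal genes rose in the KO ML libraries as well. Of 29 basal markers tested, 23 rose and 0 fell, against 12.5% and 2.62% of all genes tested. Their median log2 fold change was 3.396. The summed level was 1397, 1527 and 1332 CPM in the KO libraries against 295, 242 and 209 CPM in the WT libraries, while basal KO libraries held 23594 to 29694 CPM. The count stayed between 21 and 24 when any 1 ML library was left out.

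The keratins Krt5 and Krt14 build the intermediate filaments of basal cells. Krt5 had 184, 147 and 141 CPM in the KO libraries and 3.48, 2.502 and 1.92 CPM in the WT libraries (log2 fold change 5.95 ± 0.42, adjusted p = 3.07e-08). Krt14 had 233, 309 and 245 CPM in the KO libraries and 6.97, 2.34 and 2.22 CPM in the WT libraries (log2 fold change 6.19 ± 0.57, adjusted p = 7.35e-07). The 3 KO libraries were close to one another and far above the highest WT library for both. Col17a1, a transmembrane collagen of hemidesmosomes, had 104, 68.4 and 97.3 CPM in the KO libraries and 0.317, 0.751 and 0.556 CPM in the WT libraries (log2 fold change 7.28 ± 0.41, adjusted p = 4.26e-09). Cxcl14, a chemokine of basal cells, had 108, 55.4 and 56.7 CPM in the KO libraries and 0.475, 1.08 and 1.45 CPM in the WT libraries (adjusted p = 3.88e-08). Dsc3, a desmosomal cadherin of stratified epithelia, had 70.02, 65.7 and 59.1 CPM in KO and no count in any WT library. Pooled over libraries, that is at least 889-fold higher, against a floor of 3 counts over the WT group. Trp63, the transcription factor that keeps basal identity, had a KO mean of 30.4 ± 3.15 CPM (SD, n = 3) against 1.02 ± 1.14 in WT (adjusted p = 1.93e-05); it was named after its values were seen.

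The basal genes did not reach one common share of the basal level. Dsg3, the desmosomal partner of Dsc3, stood at 98.8% of the basal KO mean and Dsc3 at 47.98%. Krt5 stood at 9.697%, Krt14 at 7.24% and Col17a1 at 10.03%. The contractile genes were far lower, with smooth muscle actin Acta2 at 0.584%, smooth muscle myosin Myh11 at 0.422% and calponin Cnn1 at 0.345%. Acta2 and Myh11 passed the test all the same, with KO means of 26.6 and 9.42 CPM against 4.07 and 1.43 CPM in WT (adjusted p = 4.27e-04 and 0.00131). Cnn1, Actg2, Oxtr, Dkk3, Cav1 and Itgb4 were not called. These genes, Dsg3 and the shares were chosen after values were seen. The part played by basal or progenitor cells within the sorted libraries was not tested.

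**Figure D3:**
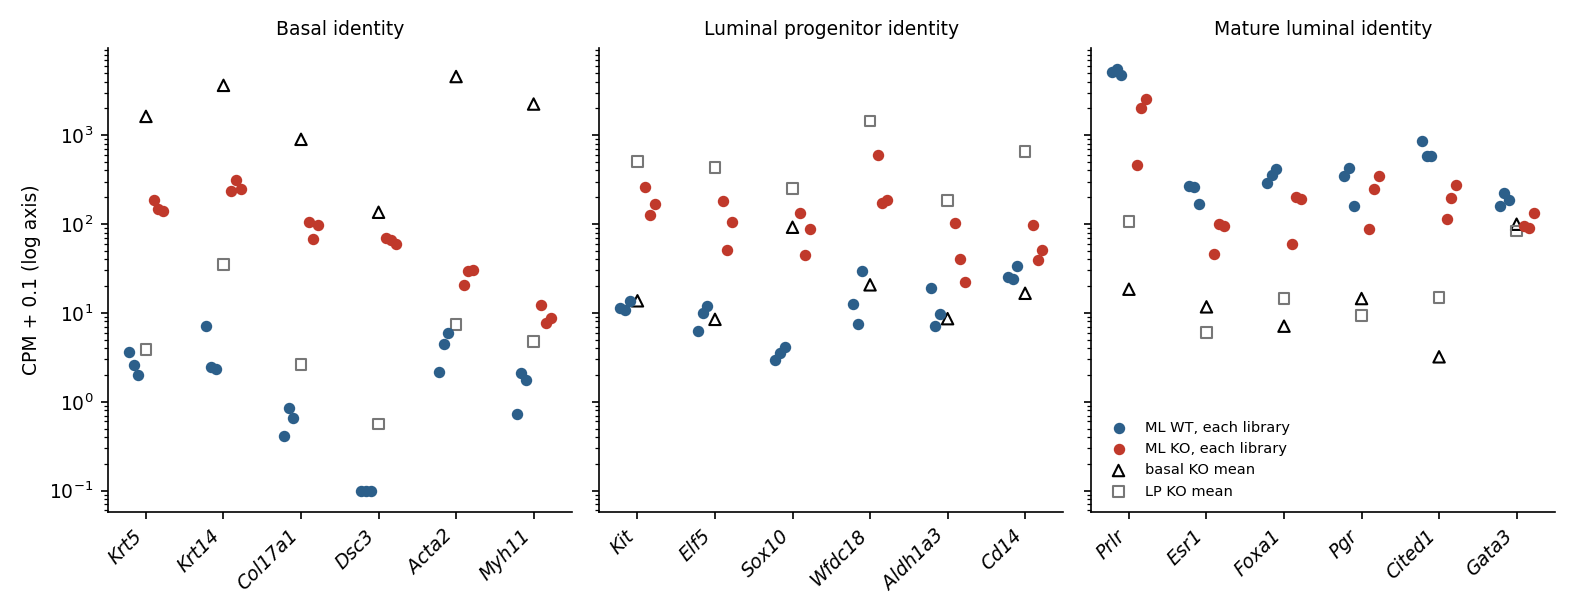
CPM + 0.1 on a log axis for 18 identity genes in each ML WT (blue) and ML KO (red) library, with the basal KO mean (triangle) and the LP KO mean (square). Krt5, Krt14, Col17a1, Kit, Elf5 and Sox10 are higher in every ML KO library than in any ML WT library, and Acta2 and Myh11 stay far below the basal mean; Dsc3 has no WT counts.

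Luminal keratin and junction genes, which both luminal populations share, were called at a share near that of all genes. Of 25 tested, 2 rose and 1 fell, against 12.5% and 2.62% of all genes tested, with a median log2 fold change of -0.03. Cldn1, a tight junction claudin, rose from 5.38, 3.503 and 1.198 CPM in WT to 229, 96.4 and 133 CPM in KO (adjusted p = 3.77e-05). Ovol1, a repressor of mesenchymal genes, had 103, 58.9 and 44.1 CPM in the KO libraries and 31.5, 21.3 and 41.8 CPM in the WT libraries (adjusted p = 0.0169), a call that ended without KO replicate 1, WT replicate 1 or WT replicate 2 (adjusted p 0.0503 to 0.151), and in the fit of the 6 ML libraries alone (adjusted p = 0.0614). Cldn8 fell, with 22.2, 28.7 and 37.9 CPM in the KO libraries and 55.9, 108 and 118 CPM in the WT libraries (adjusted p = 0.00945), a call that ended without KO replicate 1 (adjusted p = 0.05502).

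Nearly all tested genes of mitosis rose. Of 47 genes of G2 and mitosis tested, 43 rose and 1 fell, against 12.5% and 2.62% of all genes tested. The 1 that fell was Mad2l1, a spindle checkpoint protein. Their median log2 fold change was 3.56. The count stayed between 42 and 44 with any 1 ML library left out. Aurka, Ccnf and Pttg1 were not called.

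Bub1, the spindle checkpoint kinase, had 17.1, 17.4 and 11.6 CPM in the KO libraries and 0.158, 0.584 and 0.342 CPM in the WT libraries (log2 fold change 5.303 ± 0.52, adjusted p = 1.40e-06). Prc1, which bundles the microtubules of the dividing cell's midzone, had 51.5, 48.01 and 28.9 CPM in the KO libraries and 3.801, 2.17 and 2.87 CPM in the WT libraries (adjusted p = 1.57e-06). Cdk1, the cyclin-dependent kinase of mitotic entry, had 29.7, 32.8 and 17.6 CPM in the KO libraries and 3.01, 1.33 and 2.01 CPM in the WT libraries (adjusted p = 1.62e-06). Racgap1, which acts in cytokinesis, had 48.8, 48.8 and 29.6 CPM in the KO libraries and 2.69, 3.17 and 3.17 CPM in the WT libraries (adjusted p = 2.22e-06). In each of the 4 genes every KO library exceeded every WT library, and KO replicate 3 was the lowest KO library. The ML KO level of the list had a median of 52.9% of the LP KO mean and 122% of the basal KO mean.

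Promoters of mitosis genes often hold 2 short elements, and 3 are shown because their genes moved together. The windows are the 250 bases before the RefSeq start of Cdk1, Mki67 and Cdc20 (GRCm38.p6), 5′ to 3′ on the gene's strand, with matches to TTTGAA (the cell cycle homology region) and CCAAT on either strand in capitals. They are the 3 called members of lowest p whose window holds TTTGAA. Mki67, the proliferation antigen, had 231, 244 and 143 CPM in the KO libraries and 18.5, 7.76 and 8.34 CPM in the WT libraries. Cdc20, which switches on the ubiquitin ligase of anaphase, had 36.99, 28.96 and 27.7 CPM in the KO libraries and 1.27, 2.59 and 2.01 CPM in the WT libraries.
Cdk1: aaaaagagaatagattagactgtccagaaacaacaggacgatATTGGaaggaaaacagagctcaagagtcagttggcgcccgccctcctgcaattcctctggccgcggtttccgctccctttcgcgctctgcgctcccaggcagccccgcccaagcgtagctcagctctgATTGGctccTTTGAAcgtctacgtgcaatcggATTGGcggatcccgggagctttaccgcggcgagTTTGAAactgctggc
Mki67: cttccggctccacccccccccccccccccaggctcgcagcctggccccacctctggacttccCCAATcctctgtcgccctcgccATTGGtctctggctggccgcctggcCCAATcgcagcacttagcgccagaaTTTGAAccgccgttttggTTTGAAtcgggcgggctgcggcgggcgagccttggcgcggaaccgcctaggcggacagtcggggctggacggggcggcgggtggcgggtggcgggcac
Cdc20: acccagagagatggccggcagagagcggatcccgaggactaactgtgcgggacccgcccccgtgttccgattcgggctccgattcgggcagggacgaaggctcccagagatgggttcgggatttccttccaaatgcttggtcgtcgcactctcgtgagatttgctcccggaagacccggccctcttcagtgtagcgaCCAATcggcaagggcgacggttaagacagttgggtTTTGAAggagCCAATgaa
Cdk1 lies at chr10:69352913-69353162 on the minus strand, Mki67 at chr7:135716380-135716629 on the minus strand and Cdc20 at chr4:118437344-118437593 on the minus strand. Among the 40 tested members with a window in the table, 10 held TTTGAA (25.0%) and 28 held CCAAT or its reverse complement ATTGG (70.0%). Of 12237 tested genes with a window, 11.03% held TTTGAA or its reverse complement TTCAAA and 36.5% held CCAAT. A match describes the letters only.

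Of 40 replication licensing and S phase genes tested, 14 rose and 0 fell, against 12.5% and 2.62% of all genes tested. Their median log2 fold change was 1.17. Rrm2, the ribonucleotide reductase subunit of S phase, had 29.7, 49.002 and 12.2 CPM in the KO libraries and 3.801, 2.42 and 4.45 CPM in the WT libraries (adjusted p = 3.71e-04). E2f2, an activator of S phase genes, had 13.5, 20.8 and 9.18 CPM in the KO libraries and 3.01, 0.751 and 2.48 CPM in the WT libraries (adjusted p = 6.07e-04). Dtl, which targets the licensing factor Cdt1 for destruction, had 35.3, 35.4 and 16.3 CPM in the KO libraries and 2.85, 1.84 and 7.91 CPM in the WT libraries (adjusted p = 0.00153). Mcm2 to Mcm7, the subunits of the replicative helicase, were not called. Here single libraries mattered: the count was 23 without WT replicate 3, 20 without KO replicate 3 and 9 without any 1 of the other 4 libraries. DESeq2 called 23.

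Among 16 G1 cyclins, their kinases and inhibitors, 5 rose and 0 fell, against 12.5% and 2.62% of all genes tested. Ccnd2, a D-type cyclin, had 37.6, 37.8 and 46.9 CPM in the KO libraries and 0.317, 0.0834 and 0.257 CPM in the WT libraries (log2 fold change 7.53 ± 0.47, adjusted p = 7.02e-09). Cdk6, its kinase partner, had 19.2, 12.6 and 10.04 CPM in the KO libraries and 0.475, 0.5005 and 0.0428 CPM in the WT libraries (adjusted p = 8.82e-06). Cdkn2a, which encodes the cell cycle inhibitor p16 and the p53 activator ARF, had 7.14, 18.1 and 11.2 CPM in the KO libraries and 0.158, 0.751 and 1.97 CPM in the WT libraries (adjusted p = 0.00767). Its neighbour Cdkn2b had 4.07, 8.28 and 5.73 CPM in the KO libraries and 0.634, 1.17 and 2.82 CPM in the WT libraries (adjusted p = 0.0252), a call that ended without KO replicate 2, WT replicate 1 or WT replicate 2 (adjusted p 0.08696 to 0.104), and in the fit of the 6 ML libraries alone and after thinning to the smallest library (adjusted p 0.05596 to 0.362). Ccnd1, Cdk4 and Cdkn1a were not called.

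Interferon-stimulated genes, which cells switch on when interferon or nucleic acid sensors signal, rose in part. Of 66 tested of 67 listed, 30 rose and 0 fell, against 12.5% and 2.62% of all genes tested. Their median log2 fold change was 1.08. Cxcl9, a chemokine that draws T cells, had 35.9, 13.8 and 19.7 CPM in the KO libraries and 0.792, 0.0834 and 0.513 CPM in the WT libraries (log2 fold change 5.72 ± 0.61, adjusted p = 2.75e-06). Cxcl10, its close relative, had 71.1, 53.1 and 59.4 CPM in the KO libraries and 7.44, 3.17 and 1.28 CPM in the WT libraries (adjusted p = 1.04e-05). Oasl1, of the oligoadenylate synthetase-like family, had 34.2, 12.8 and 13.7 CPM in the KO libraries and 0.158, 0.5005 and 1.11 CPM in the WT libraries (adjusted p = 8.95e-06). For all 3 the KO libraries lay above the WT libraries without overlap, and KO replicate 1 was the highest. Ifit1, which binds foreign RNA, had 27.8, 16.8 and 20.4 CPM in the KO libraries and 0.792, 0.5005 and 0.342 CPM in the WT libraries (adjusted p = 1.52e-05). Ifit3 had 15.1, 4.91 and 6.802 CPM in KO and no WT count, at least 97.4-fold higher; it has a near-identical copy, Ifit3b, so reads could be split between them.

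Among transcription factors of the response, Stat2, Irf1 and Irf9 were not called, with log2 fold changes of -0.18, 0.16 and -0.101. By contrast, Irf7 rose (1.93, adjusted p = 0.0119) but not in limma voom (adjusted p = 0.0679). They were named after their values were seen. The list count ranged from 21 to 29 with 1 ML library left out, and it was 22 without KO replicate 1.

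Promoters of such genes often hold the interferon-stimulated response element, and 3 windows are shown because these genes rose together. Cxcl10, Ifit1 and Rsad2 are the called members of lowest p whose 250-base window holds the ISRE-like letters GAAANNGAAA on either strand, which are in capitals. Sequences are from RefSeq (GRCm38.p6), 5′ to 3′ on the gene's strand.
Cxcl10: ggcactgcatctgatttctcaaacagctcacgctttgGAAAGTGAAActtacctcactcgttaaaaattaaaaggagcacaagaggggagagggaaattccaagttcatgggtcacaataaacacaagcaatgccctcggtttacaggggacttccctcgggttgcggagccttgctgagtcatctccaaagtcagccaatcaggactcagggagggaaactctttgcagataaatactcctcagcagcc
Ifit1: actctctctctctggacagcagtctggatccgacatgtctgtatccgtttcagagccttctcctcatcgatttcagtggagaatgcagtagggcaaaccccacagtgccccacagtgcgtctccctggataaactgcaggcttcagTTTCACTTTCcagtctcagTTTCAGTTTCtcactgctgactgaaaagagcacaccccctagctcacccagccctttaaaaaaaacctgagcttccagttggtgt
Rsad2: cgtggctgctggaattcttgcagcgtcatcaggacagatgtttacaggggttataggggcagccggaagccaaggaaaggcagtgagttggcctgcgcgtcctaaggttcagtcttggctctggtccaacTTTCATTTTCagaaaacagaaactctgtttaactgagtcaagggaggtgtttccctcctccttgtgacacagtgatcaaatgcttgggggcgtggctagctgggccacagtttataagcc
The Cxcl10 window is chr5:92348890-92349139 on the minus strand, the Ifit1 window chr19:34640639-34640888 on the plus strand and the Rsad2 window chr12:26456453-26456702 on the minus strand. Ifit1 holds 2 matches, 104 to 95 and 85 to 76 bases before the start. Of the 50 tested members with a window, 24 held the letters (48.0%): 13 of 23 that rose (56.5%) and 11 of 27 that did not (40.7%). Among the 12237 tested genes with a window the share was 2.66%. Rsad2, an antiviral radical enzyme, had 30.6, 27.4 and 19.7 CPM in the KO libraries and 0.317, 2.002 and 1.58 CPM in the WT libraries.

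In the fit of all 18 libraries, edgeR called antigen presentation genes in class II and not in class I. Of 9 MHC class II genes tested, 3 rose and 0 fell (12.5% of all genes tested rose), and limma voom called 0. Cd74, the class II invariant chain, had 52.5, 5.58 and 18.98 CPM in the KO libraries and 0.475, 1.501 and 1.58 CPM in the WT libraries (adjusted p = 0.00329), with a wide spread among KO libraries, and its call ended in limma voom (adjusted p = 0.145). H2-Ab1, a class II beta chain, had 9.03, 1.74 and 5.54 CPM in the KO libraries and 0, 0.5005 and 0.428 CPM in the WT libraries (adjusted p = 0.00853), a call that ended in limma voom (adjusted p = 0.164). Of 18 MHC class I and antigen processing genes, 0 were called by edgeR in either direction, with 1 at an unadjusted p under 0.05, 0 by DESeq2 or limma voom and a median log2 fold change of 0.14. In edgeR's fit of the 6 ML libraries alone, the class I gene H2-Q7 was called higher (log2 fold change 0.88, adjusted p = 0.0252). With the replicate block in that fit it was called too (adjusted p = 0.0257). The class I gene H2-K1 had 1594, 1153 and 1473 CPM in the KO libraries and 1143, 847 and 1047 CPM in the WT libraries (adjusted p = 0.327). Of 18 nucleic acid sensing genes, 2 rose and 0 fell, against 12.5% and 2.62% of all genes tested. The 2 were the DNA sensor Cgas, with 7.74, 7.54 and 3.16 CPM in the KO libraries and 2.22, 0.918 and 1.71 CPM in the WT libraries (adjusted p = 0.0184), and Ifi204 (adjusted p = 0.0498). The Cgas call ended without KO replicate 1, KO replicate 2, WT replicate 2 or WT replicate 3 (adjusted p 0.0534 to 0.0948), and in limma voom (adjusted p = 0.0678), and the Ifi204 call without KO replicate 1, KO replicate 2, WT replicate 1 or WT replicate 3 (adjusted p 0.0935 to 0.162), and in the fit of the 6 ML libraries alone and in limma voom (adjusted p 0.0598 to 0.106).

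Inflammatory genes of the NF-kB pathway rose in part, chemokines and cytokines among them. Of 29 tested of 31 listed, 13 rose and 0 fell, against 12.5% and 2.62% of all genes tested. Their median log2 fold change was 1.78. Tnf, the tumour necrosis factor ligand, had 71.8, 28.9 and 28.2 CPM in the KO libraries and 9.03, 2.42 and 4.36 CPM in the WT libraries (log2 fold change 3.08 ± 0.42, adjusted p = 4.35e-05). Icam1, the leukocyte adhesion receptor, had 389, 182 and 179 CPM in the KO libraries and 37.5, 52.9 and 29.2 CPM in the WT libraries (adjusted p = 6.88e-05). The chemokine Ccl5 had 8.03, 2.84 and 3.08 CPM in the KO libraries and 0, 0.167 and 0.0428 CPM in the WT libraries (adjusted p = 1.50e-04). Ccl2, which draws monocytes, had 19.2, 2.595 and 4.07 CPM in the KO libraries and 0, 0.334 and 0 CPM in the WT libraries (adjusted p = 5.29e-04). KO replicate 1 was highest in all 4, and the groups did not overlap. The list count was 9 without KO replicate 1, and 8 without WT replicate 2 or WT replicate 3. The pathway's own subunits and inhibitors Nfkb1, Nfkb2, Relb and Nfkbia were not called.

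Immediate early genes, which respond to growth factors and to cell handling within minutes, were split. Of 29 tested, 12 rose and 0 fell, against 12.5% and 2.62% of all genes tested. The summed level of the list was lower in KO, at 16305 to 18604 CPM against 18676 to 20560 CPM in the WT libraries. Ccn2, a matricellular target of YAP and TGF-beta signalling, had 341, 154 and 139.9 CPM in the KO libraries and 2.53, 4.09 and 1.71 CPM in the WT libraries (log2 fold change 6.27 ± 0.43, adjusted p = 2.75e-08). The nuclear receptor Nr4a2 had 51.2, 16.3 and 28.8 CPM in the KO libraries and 0.634, 0.667 and 0.76998 CPM in the WT libraries (adjusted p = 7.35e-07). Egr3, a zinc finger factor, had 63.1, 32.7 and 45.6 CPM in the KO libraries and 1.11, 3.42 and 1.198 CPM in the WT libraries (adjusted p = 3.02e-05). Fos, Jun, Junb, Egr1 and Atf3 were not called, with log2 fold changes between -0.72 and 0.59. Without KO replicate 1 the count was 6. Of 14 complement genes, 2 rose (C3 and Masp1) and 1 fell (C1ra), against 12.5% and 2.62% of all genes tested. C3, the central complement protein, had 625, 84.04 and 131 CPM in the KO libraries and 9.34, 30.2 and 38.2 CPM in the WT libraries (adjusted p = 0.00667), and its call ended without KO replicate 1 (adjusted p = 0.0786). The Masp1 call ended without KO replicate 2, WT replicate 2 or WT replicate 3 (adjusted p 0.0532 to 0.0758), and the C1ra call without KO replicate 1, KO replicate 2, WT replicate 1 or WT replicate 2 (adjusted p 0.0554 to 0.0826), and in the fit of the 6 ML libraries alone (adjusted p = 0.0557).

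Of 34 matrix and TGF-beta genes tested, 16 rose and 0 fell, against 12.5% and 2.62% of all genes tested. Their median log2 fold change was 1.82. Thbs1, thrombospondin 1, which activates latent TGF-beta, had 2027, 764 and 827 CPM in the KO libraries and 55.6, 35.95 and 21.3 CPM in the WT libraries (log2 fold change 5.01 ± 0.50, adjusted p = 1.74e-06). Lama3, the laminin 332 chain of the epithelial basement membrane, had 83.2, 47.9 and 53.5 CPM in the KO libraries and 5.54, 4.09 and 6.16 CPM in the WT libraries (adjusted p = 1.66e-06). Col18a1, a basement membrane collagen, had 58.3, 53.4 and 42.04 CPM in the KO libraries and 5.54, 3.17 and 4.75 CPM in the WT libraries (adjusted p = 2.67e-07). Col12a1, a fibril-associated collagen, had 8.63, 8.97 and 9.77 CPM in the KO libraries and 0, 0.0834 and 0.0428 CPM in the WT libraries (adjusted p = 3.64e-08). Its WT group held 2 counts in all, a pooled ratio of 192 with a 95% counting interval of 52.9 to 1587. The fibrillar collagens of stroma, Col1a1, Col1a2 and Col3a1, were not called.

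Wnt pathway genes rose in part, among receptors, ligands and feedback targets. Of 33 tested of 36 listed, 14 rose and 1 fell, against 12.5% and 2.62% of all genes tested. Their median log2 fold change was 1.197. Lgr6, a receptor for R-spondins, had 47.2, 29.3 and 31.7 CPM in the KO libraries and 0.475, 1.501 and 1.24 CPM in the WT libraries (log2 fold change 4.95 ± 0.46, adjusted p = 7.35e-07). Lgr5, another R-spondin receptor and a stem cell marker, had 10.7, 12.6 and 23.6 CPM in the KO libraries and 0, 0.2502 and 0.299 CPM in the WT libraries (adjusted p = 1.02e-06). Among ligands, Wnt10a had 8.73, 5.27 and 9.49 CPM in the KO libraries and 0.317, 0 and 0.171 CPM in the WT libraries (adjusted p = 2.75e-06). Sfrp1, a secreted Wnt antagonist, had 14.6, 21.9 and 36.3 CPM in the KO libraries and 0.634, 0.0834 and 0.984 CPM in the WT libraries (adjusted p = 2.22e-06). All 4 were higher in every KO library. The feedback targets Axin2, Notum and Nkd1 rose too (3.87, 5.82 and 3.203 on the log2 scale), and were named after their values were seen; the Notum call ended without WT replicate 3 (adjusted p = 0.0574), and the Nkd1 call in the fit of the 6 ML libraries alone (adjusted p = 0.0564). Wnt4, the ligand of hormone-sensing cells, was the member that fell, with 130.1, 104 and 107 CPM in the KO libraries and 239.6, 490.1 and 168 CPM in the WT libraries (adjusted p = 0.0478); its call ended without KO replicate 1, KO replicate 2, KO replicate 3, WT replicate 1 or WT replicate 2 (adjusted p 0.0607 to 0.286), and with RLE scaling and with robust spread (adjusted p 0.0509 to 0.0539).

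Notch genes rose in 10 of 21 tested and fell in 0, against 12.5% and 2.62% of all genes tested. Their median log2 fold change was 0.84. The ligand Dll1 had 16.6, 13.1 and 20.3 CPM in the KO libraries and 2.22, 0.417 and 0.428 CPM in the WT libraries (log2 fold change 4.36 ± 0.46, adjusted p = 2.75e-06). Jag2, a ligand of basal cells, had 5.55, 12.1 and 16.02 CPM in the KO libraries and 2.53, 1.001 and 3.68 CPM in the WT libraries (adjusted p = 0.00175). Maml2, a co-activator of the Notch complex, had 61.4, 25.6 and 32.6 CPM in the KO libraries and 5.07, 6.51 and 5.52 CPM in the WT libraries (adjusted p = 8.70e-06). The target genes Hey1, Hey2 and Heyl rose, with the Heyl call ending without KO replicate 1 or WT replicate 1 (adjusted p 0.0535 to 0.0986), and in the fit of the 6 ML libraries alone and in limma voom (adjusted p 0.0564 to 0.0729), while Hes1 did not pass the test (-0.61 on the log2 scale). The list count was 5 without WT replicate 1 or WT replicate 3 and 6 without KO replicate 1.

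In the IGF axis, 8 of 14 genes rose and 0 fell, against 12.5% and 2.62% of all genes tested. Igfbp3, a binding protein that carries IGF, had 78.3, 50.7 and 65.6 CPM in the KO libraries and 0.475, 1.08 and 1.24 CPM in the WT libraries (log2 fold change 5.99 ± 0.60, adjusted p = 1.66e-06). Igf1r, the receptor, had 82.3, 42.3 and 37.5 CPM in the KO libraries and 4.28, 5.92 and 10.95 CPM in the WT libraries (adjusted p = 2.84e-05). Igfbp7, a related binding protein, had 25.5, 18.2 and 18.9 CPM in the KO libraries and 2.06, 2.502 and 2.78 CPM in the WT libraries (adjusted p = 1.66e-06). The ligands Igf1 and Igf2 were not called. Without WT replicate 3 the count was 5. Of 15 ErbB receptors and ligands, 5 rose and 0 fell, against the same 12.5% and 2.62% of all genes tested. Egfr, the epidermal growth factor receptor, had 57.6, 38.8 and 45.8 CPM in the KO libraries and 1.58, 3.003 and 1.03 CPM in the WT libraries (log2 fold change 4.69 ± 0.38, adjusted p = 2.02e-07). Ereg, the ligand epiregulin, had 4.17, 3.42 and 4.51 CPM in the KO libraries and 0.475, 0.417 and 0.171 CPM in the WT libraries (adjusted p = 0.00117). Areg, the amphiregulin ligand of mature luminal cells, had 755, 1285 and 838 CPM in the KO libraries and 1519.7, 1754 and 725 CPM in the WT libraries and overlapped (adjusted p = 0.559).

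Classic p53 targets, 41 tested of 42 listed, had 8 that rose and 1 that fell, against 12.5% and 2.62% of all genes tested. Their median log2 fold change was -0.03. Gadd45a, a growth arrest gene, fell, with 113, 147 and 157 CPM in the KO libraries and 633, 456 and 251 CPM in the WT libraries (log2 fold change -1.68 ± 0.30, adjusted p = 6.61e-04). Phlda3, a repressor of Akt, had 14.9, 25.5 and 17.95 CPM in the KO libraries and 2.06, 1.33 and 2.48 CPM in the WT libraries (adjusted p = 6.87e-06). Ckap2, a spindle protein that also cycles with cell division, had 26.1, 19.6 and 15.2 CPM in the KO libraries and 2.06, 1.42 and 3.04 CPM in the WT libraries (adjusted p = 6.19e-06), and Gtse1, another cell cycle gene, also rose (adjusted p = 0.00337). Cdkn1a, which encodes p21, had 152, 170.1 and 166 CPM in the KO libraries and 189, 106 and 105 CPM in the WT libraries and overlapped (adjusted p = 0.62996). Mdm2, Bax, Ccng1 and Sesn1 had log2 fold changes of -0.06, -0.12, -0.44 and -0.04 and were not called.

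Of 39 homologous recombination and Fanconi genes tested, 10 rose and 1 fell, against 12.5% and 2.62% of all genes tested. Their median log2 fold change was 0.299. Exo1, the end-resecting nuclease, had 11.7, 10.3 and 3.88 CPM in the KO libraries and 0.634, 0.667 and 1.37 CPM in the WT libraries (adjusted p = 0.005604). Rad54l, a DNA translocase of recombination, had 6.74, 10.3 and 5.299 CPM in the KO libraries and 1.58, 1.08 and 3.08 CPM in the WT libraries (adjusted p = 0.00536), Rad51b 9.92, 2.82 and 3.24 CPM in the KO libraries and 0.792, 1.001 and 0.813 CPM in the WT libraries (adjusted p = 0.00246), and Fanci 8.73, 10.3 and 5.46 CPM in the KO libraries and 2.69, 3.92 and 2.95 CPM in the WT libraries (adjusted p = 0.00913). These calls held with any 1 library left out. After thinning to the smallest library, Rad54l and Fanci were no longer called (adjusted p = 0.0547 and 0.138). The list count was 5 without KO replicate 1, KO replicate 2 or WT replicate 2. Of 26 end joining and checkpoint genes, 3 rose (Chek2, Chek1 and H2ax), against 12.5% of all genes tested. Chek2 had 10.7, 6.13 and 7.79 CPM in the KO libraries and 2.22, 2.34 and 2.31 CPM in the WT libraries (adjusted p = 0.00593), a call that ended after thinning to the smallest library (adjusted p = 0.06396). The Chek1 call ended without KO replicate 2, WT replicate 1 or WT replicate 2 (adjusted p 0.0661 to 0.0843), and in the fit of the 6 ML libraries alone (adjusted p = 0.0514), and the H2ax call without KO replicate 2, WT replicate 1, WT replicate 2 or WT replicate 3 (adjusted p 0.0588 to 0.113).

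In the BCL2 family, 4 of 16 tested rose and 0 fell, against 12.5% and 2.62% of all genes tested. Bcl2, the founding survival factor, had 20.6, 16.2 and 19.5 CPM in the KO libraries and 5.38, 3.003 and 1.92 CPM in the WT libraries (log2 fold change 2.53 ± 0.42, adjusted p = 3.24e-04), and Bok, a pro-apoptotic relative, had 8.63, 9.304 and 8.503 CPM in the KO libraries and 2.53, 0.584 and 2.14 CPM in the WT libraries (adjusted p = 3.81e-04). Bcl2a1b and Bcl2a1d also rose but belong to a cluster of near-identical copies and are uncertain, and the Bcl2a1d call ended without WT replicate 2 or WT replicate 3 (adjusted p 0.0587 to 0.0883), and after thinning to the smallest library (adjusted p = 0.132).

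Genes of core metabolism were counted next. Of 75 oxidative phosphorylation genes, 1 rose and 0 fell, against 12.5% and 2.62% of all genes tested (median log2 fold change -0.09). The proteasome had 0 of 31 called by edgeR, DESeq2 or limma voom, with 3 at an unadjusted p under 0.05 (median 0.09), and of 31 genes linked to mTORC1 2 rose (median -0.02). Single enzymes stood out. Fads2, a fatty acid desaturase, had 110.2, 55.7 and 65.7 CPM in the KO libraries and 7.13, 8.17 and 16.1 CPM in the WT libraries (adjusted p = 1.45e-05), and its neighbour Fads1 had 105, 41.6 and 67.1 CPM in the KO libraries and 13.6, 12.2 and 18.3 CPM in the WT libraries (adjusted p = 9.89e-05). In the list of ATF4 and unfolded protein response genes, 3 of 31 rose, led by the serine synthesis enzyme Psat1 with 91.6, 51.4 and 33.2 CPM in the KO libraries and 6.02, 2.42 and 7.02 CPM in the WT libraries (adjusted p = 9.57e-04). Of 27 glycolysis and hypoxia genes, 5 rose and 1 fell, with Egln3, an oxygen-sensing prolyl hydroxylase, at 56.2, 20.1 and 15.9 CPM in the KO libraries and 1.27, 4.34 and 1.497 CPM in the WT libraries (adjusted p = 1.32e-04). Of 26 ribosome biogenesis genes, 4 rose. Myc had 333, 136 and 150.3 CPM in the KO libraries and 88.5, 80.9 and 42.4 CPM in the WT libraries (adjusted p = 0.00679), a call that ended without KO replicate 1 (adjusted p = 0.0689). Among 16 heat shock genes, 2 rose, the small chaperones Cryab (adjusted p = 3.41e-05) and Hspb8 (adjusted p = 3.32e-04). In the hormone response list, 3 of 25 rose and 3 fell.

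**Figure D4:**
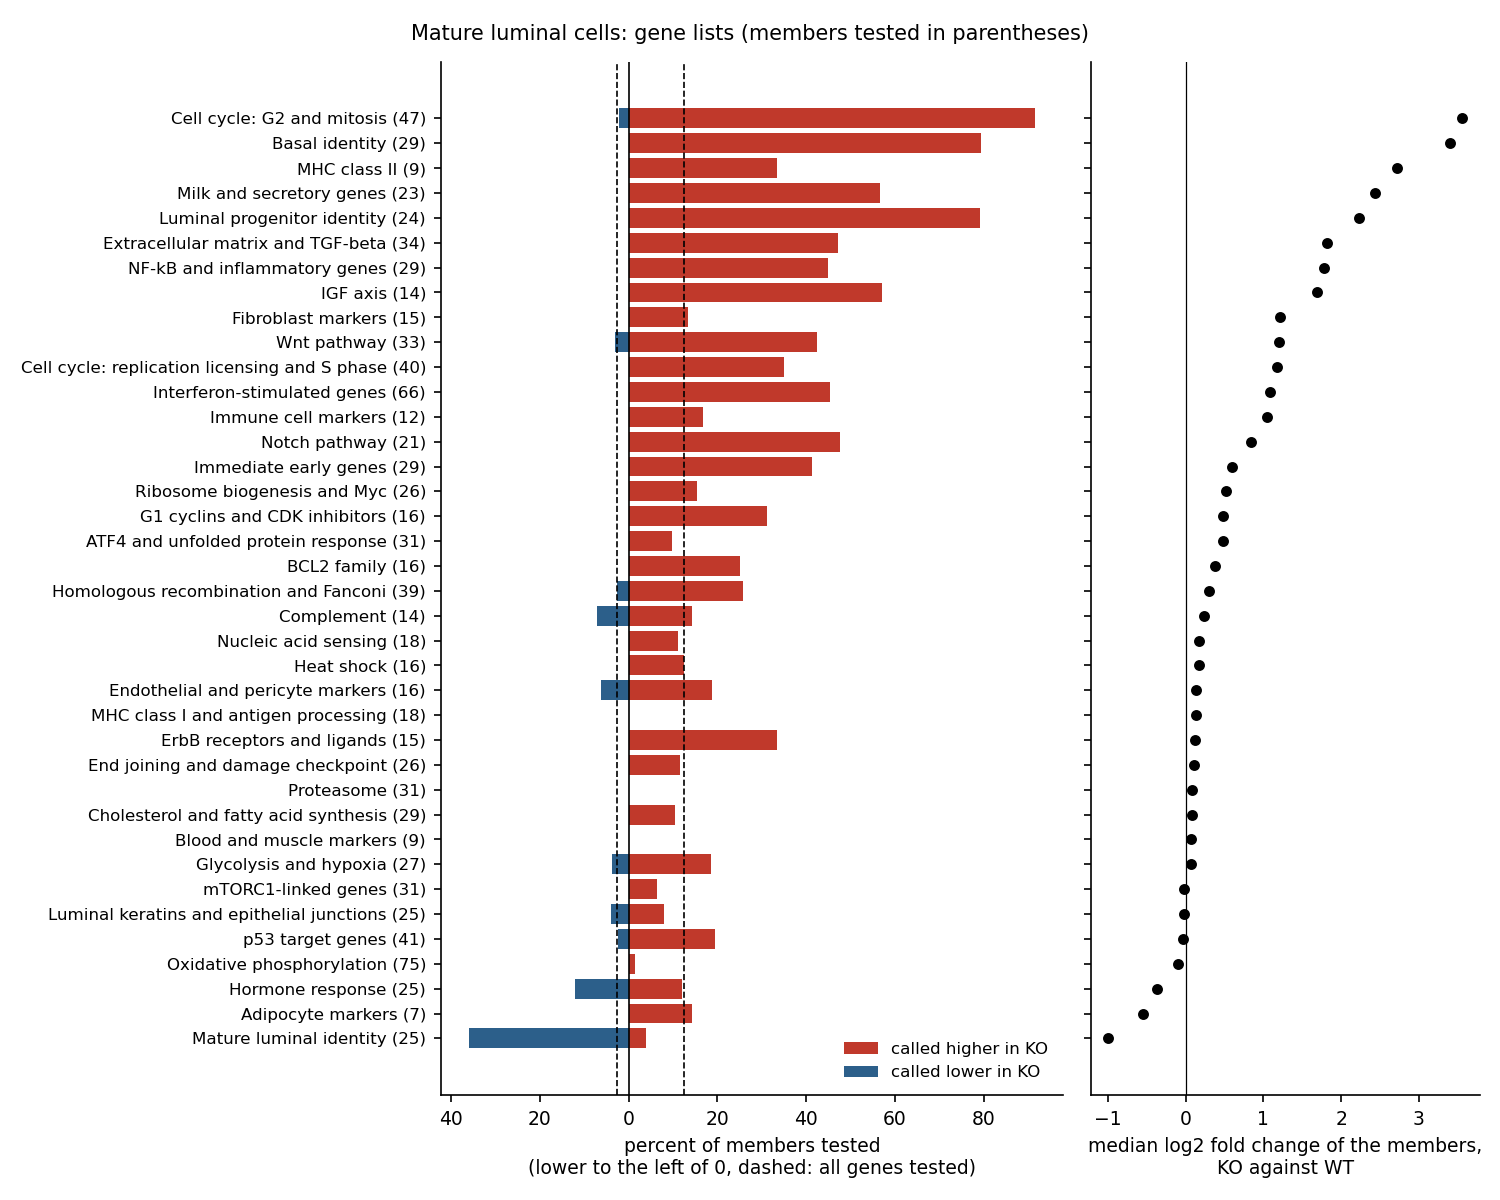
Left, the percent of tested members of each of 38 gene lists that were called higher (red) or lower (blue) in ML KO cells, with dashed lines at the 12.5% and 2.62% of all genes; right, the median log2 fold change of each list. The mitosis list has the highest median, followed by basal identity, and mature luminal identity is the list with the largest share called lower, 9 of 25.

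The 12 largest rises under the naming rule were Dsc3, Stra6, Gfra1, Serpina3i, a, Ifit3, Slc4a4, Scel, Ccl20, Adamts18, Sox11 and Cryba4. All but Stra6 and a had no count in any WT library, so only lower bounds can be given, against a floor of 3 counts over the WT group. Gfra1, the GDNF receptor, had 13.6, 11.3 and 11.5 CPM in KO (at least 163-fold higher). Slc4a4, a bicarbonate transporter, had 9.22, 8.36 and 7.12 CPM (at least 112-fold). Scel, sciellin of the cornified envelope, had 6.35, 12.3 and 2.73 CPM (at least 113-fold). Ccl20, a chemokine, had 18.7, 1.13 and 2.41 CPM (at least 56.5-fold), and Sox11, a developmental transcription factor, had 8.53, 5.83 and 4.19 CPM (at least 78.2-fold). The remaining members with no WT count were Serpina3i, Adamts18 and Cryba4, at least 122-fold, 93.7-fold and 64.8-fold higher. Serpina3i belongs to a cluster of close paralogs, so its counts are uncertain. Stra6, the membrane receptor for retinol-binding protein, had 113, 104 and 18.98 CPM in KO and 1 count over the WT group, a pooled ratio of 3128 with a 95% counting interval of 561 to 123575. Counting intervals and floors cover counting error only. None of the 12 lost its call in any of the 14 alternatives run.

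The 12 largest falls were smaller, and most lost their call under some alternative. Napsa, an aspartic protease, had 0, 0.166 and 1.11 CPM in the KO libraries and 2.53, 5.17 and 9.41 CPM in the WT libraries (log2 fold change -3.64 ± 1.17, adjusted p = 0.0442). Cdh13, a cadherin anchored to the membrane, had 2.58, 3.45 and 6.21 CPM in the KO libraries and 34.8, 44.1 and 7.101 CPM in the WT libraries (log2 fold change -2.78 ± 0.58, adjusted p = 0.00259). Adra1a, an adrenergic receptor, had 18.5, 13.003 and 16.1 CPM in the KO libraries and 50.05, 117 and 59.03 CPM in the WT libraries (log2 fold change -2.25 ± 0.42, adjusted p = 0.00103). Adra1a and Coro6, an actin-binding coronin with 1.88, 3.12 and 5.62 CPM in the KO libraries and 13.9, 13.3 and 24.6 CPM in the WT libraries (adjusted p = 0.00168), kept their call in all 14 alternatives. Bmp3, a growth factor of the BMP family, had 7.54, 9.61 and 12.5 CPM in the KO libraries and 20.1, 47.05 and 97.8 CPM in the WT libraries (adjusted p = 0.0381) and lost its call without KO replicate 1, KO replicate 2, KO replicate 3, WT replicate 2 or WT replicate 3 (adjusted p 0.0691 to 0.193), and in DESeq2 (adjusted p = 0.0625). Col8a1, a short-chain collagen, lost its call without KO replicate 1, KO replicate 2 or WT replicate 1 (adjusted p 0.0591 to 0.0758), and Napsa without KO replicate 1, KO replicate 2, WT replicate 2 or WT replicate 3 (adjusted p 0.0818 to 0.147). Ms4a4a, Pcdhb1, Draxin, B4galt5, Fbxo24 and Fndc5 each lost theirs in 4 or more alternatives, leaving out KO replicate 1 among them for each but Draxin.

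Markers of cells outside the epithelium were read in the same libraries, where 12.5% of all genes tested rose and 2.62% fell. Of 28 immune markers, 12 passed the filter and 2 rose, and the summed level of the list was 6.63 to 16.5 CPM in KO and 5.38 to 6.59 CPM in WT. The T cell and B cell markers Cd3d, Cd3g and Ms4a1 were at 0 in all 6 libraries. Cd52, a lymphocyte surface antigen, had 0.298, 0.359 and 0.593 CPM in the KO libraries and 0, 0 and 0.0428 CPM in the WT libraries (adjusted p = 0.02697), and Gzma, a cytotoxic granule protease, had 0.793, 0.166 and 0.514 CPM in the KO libraries and 0, 0 and 0 CPM in the WT libraries (adjusted p = 0.02998). The Cd52 call ended without KO replicate 3, WT replicate 1, WT replicate 2 or WT replicate 3 (adjusted p 0.0652 to 0.103), and the Gzma call without KO replicate 1, KO replicate 3, WT replicate 1, WT replicate 2 or WT replicate 3 (adjusted p 0.0547 to 0.116). Fibroblast markers summed to 391 to 896 CPM in KO and 498 to 631 CPM in WT, and 2 of 15 rose, Fbln1 and Mmp2. Endothelial and pericyte markers summed to 90.4 to 177 CPM in KO and 175 to 259.6 CPM in WT, with 3 of 16 higher (Flt1, Tek and Cspg4) and Egfl7 lower. The Tek call ended without KO replicate 1, WT replicate 1 or WT replicate 3 (adjusted p 0.0563 to 0.0931), and in the fit of the 6 ML libraries alone (adjusted p = 0.0527). The Cspg4 call ended without KO replicate 1, KO replicate 2, KO replicate 3, WT replicate 1 or WT replicate 2 (adjusted p 0.0557 to 0.156), and in the fit of the 6 ML libraries alone and in limma voom (adjusted p 0.0907 to 0.0982), and the Egfl7 call without KO replicate 1 or KO replicate 2 (adjusted p 0.0529 to 0.0559), and after thinning to the smallest library (adjusted p = 0.171). Adipocyte markers summed to 11.7 to 28.04 CPM and 10.01 to 19.6 CPM, and 1 of 7 tested rose (Lpl), a call that ended without KO replicate 3 or WT replicate 3 (adjusted p 0.0713 to 0.0719), and in limma voom (adjusted p = 0.133). Of 9 blood and muscle markers tested, 0 were called by edgeR, DESeq2 or limma voom, and 0 had an unadjusted p under 0.05. The part of such cells in the chemokine and matrix changes was not tested.

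The genotype difference in ML cells was then set against the same difference in LP and basal cells. The difference itself was tested as an interaction, and 1141 genes differed between ML and LP (6.93%), with the KO against WT change more positive in ML for 939 and more negative for 202. Between ML and basal cells 1004 genes differed (6.1%), 826 more positive and 178 more negative in ML. With the mouse as a block, the ML and LP count was 1727.

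Identity genes were among them. Krt5 had a log2 fold change of 5.95 in ML against 0.54 in LP cells and -0.21 in the basal population, and both differences passed the test (adjusted p = 5.96e-06 against LP and 6.22e-07 against basal cells). Col17a1 had 7.28 in ML against 0.36 in LP cells and 0.22 in the basal population (adjusted p = 3.91e-07 against LP and 1.51e-07 against basal cells). Kit had 3.96 in ML and -0.52 in LP (adjusted p of the difference = 3.57e-05), and Elf5 had 3.58 and 0.11 (adjusted p = 0.00735). Over the basal list the median log2 fold change of ML cells was 3.396, against 0.36 for LP and -0.19 for basal cells. For the mature luminal list the medians were -0.99, -1.11 and 0.65.

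Matrix genes showed gaps too. Ccn2 had 6.27 in ML against 1.303 in LP cells and -0.56 in the basal population (adjusted p = 8.03e-06 against LP and 5.96e-07 against basal cells). Lama3 had 3.54, -2.93 and 0.17 (adjusted p = 3.91e-07 against LP and 1.28e-04 against basal cells). Sema6a, a transmembrane semaphorin, had 6.66, 0.83 and 0.24 (adjusted p = 3.91e-07 against LP and 1.51e-07 against basal cells), and the adhesion molecule Cadm1 had 4.46, 0.08 and 0.29 (adjusted p = 4.13e-07 against LP and 6.22e-07 against basal cells).

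Mitosis and interferon genes were called in the other populations as well: of the 47 mitosis genes, 44 rose in LP and 42 in basal cells, and of the 66 interferon-stimulated genes, 38 and 40. Over all 16466 genes tested, 1243 were called higher in LP, 407 in basal cells and 2059 in ML. The median log2 fold change of the mitosis list was 3.56 for ML, 2.84 for LP and 3.998 for basal cells. For interferon-stimulated genes it was 1.08, 1.91 and 2.07, and 5 of the 66 had a lower log2 fold change in ML than in LP by the test of the difference, and 5 a lower one than in basal cells. Of the mitosis genes, 10 had a lower log2 fold change in ML than in basal cells, and against LP 3 had a higher one and 1 a lower one. Of the 16466 genes tested, 202 had a lower log2 fold change in ML than in LP and 939 a higher one (6.93% together). Against basal cells 178 had a lower one and 826 a higher one (6.1% together). NF-kB genes had medians of 1.78, -0.205 and -0.07. MHC class I had 0 of 18 called higher in ML and 13 in LP, and oxidative phosphorylation 1 of 75 in ML and 37 in LP. By the test of the difference, the change was lower in ML than in LP for 2 of the 18 class I genes and 13 of the 75 oxidative phosphorylation genes, and higher for 0 of either list. Trp53 fell by 1.58 on the log2 scale in ML and by 3.60 in LP, and that difference passed the test (adjusted p = 0.0116).

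**Figure D5:**
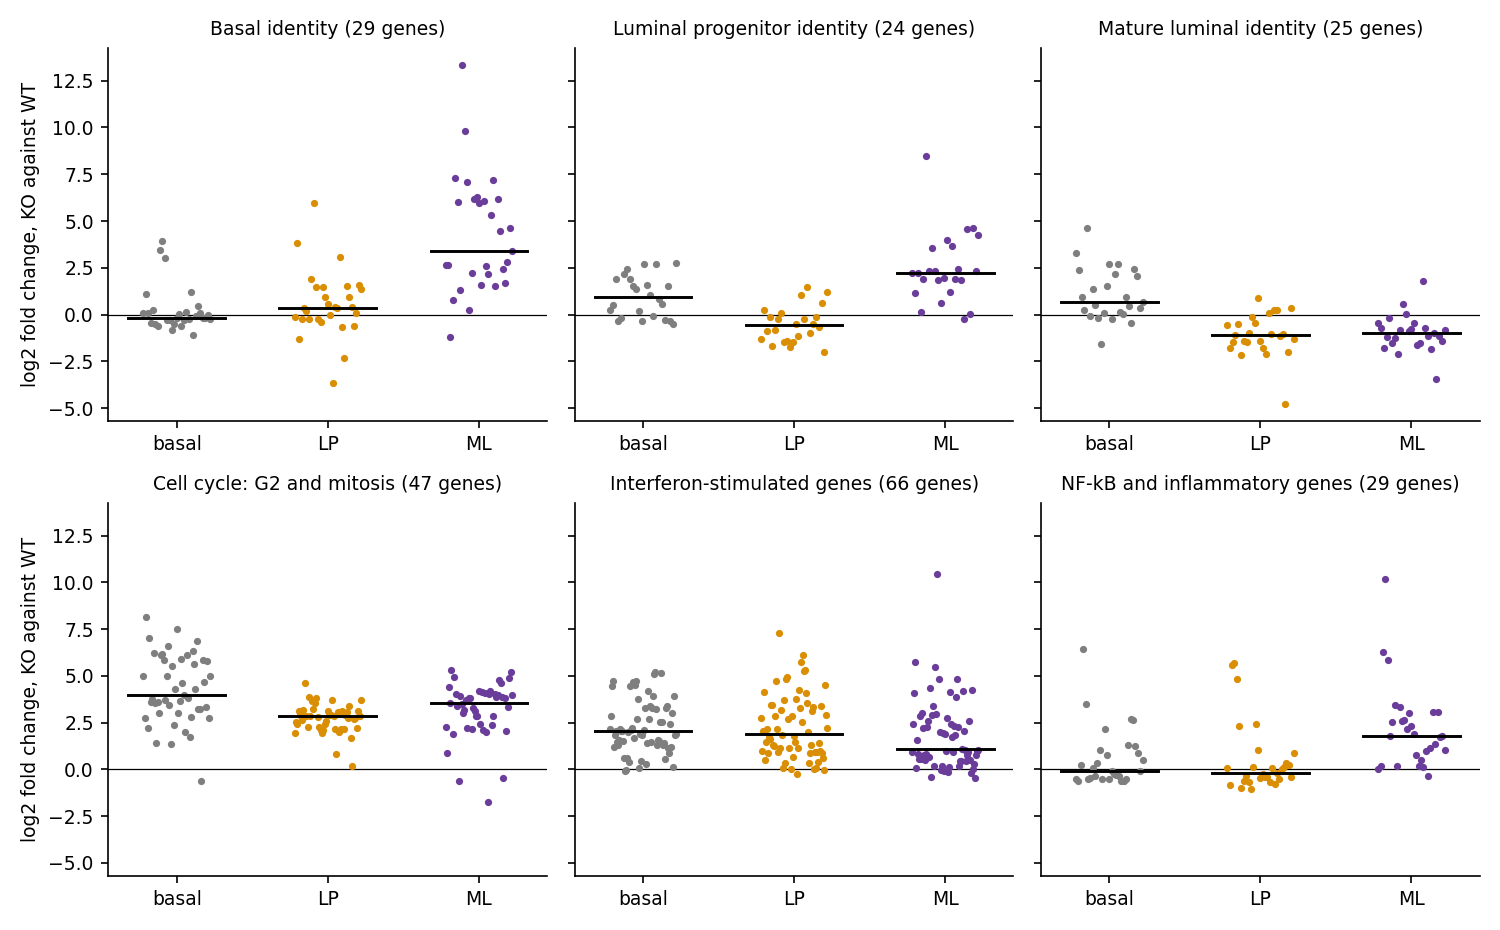
Log2 fold change, KO against WT, of every tested member of 6 gene lists in each of the 3 populations; each point is 1 gene and the bar is the list median. The basal and progenitor medians lie above 0 in ML ( 3.396 and 2.23), and the mitosis median lies above 0 in all 3 populations.

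Most genes that rose in ML KO cells, like most genes tested, still had lower levels there than in another KO population. Of the 2059, 111 (5.39%) had an ML KO mean above both the LP KO and the basal KO mean, against 25.5% of all genes tested. A further 26.7% lay below the LP KO mean only, 28.2% below the basal KO mean only and 39.7% below both. Of the 432 that fell, 65.7% remained above both. KO means enter both sides of these shares, so they are a description.

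Of the 2059 genes higher in ML, 475 (23.1%) were also called higher in LP, which had 1243 such calls, and 243 (11.8%) in basal cells, which had 407. In all 3 populations 160 were called higher. Of the 432 lower genes, 115 (26.6%) were also called lower in LP and 3 in basal cells; Trp53 and Cuedc1 were lower in all 3. Ranked by the smallest of its 3 fold changes, the first of these genes was a (agouti, chromosome 2), a coat colour gene whose alleles differ between laboratory strains. It had 265, 127 and 153 CPM in ML KO and 5 counts over the ML WT group, a pooled ratio of 1295 (95% counting interval 555 to 3989). Its log2 fold change was 10.48 in ML against 10.88 in LP cells and 13.65 in the basal population. The part of strain background in this or any other difference was not tested.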

How the data were processed

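RNA from sorted mammary populations was sequenced as bulk TruSeq libraries. Whether strand was kept in the libraries and counts was unknown, so reads of overlapping and antisense genes may be mixed. The authors deposited whole-number read counts per Entrez gene, made with featureCounts on mm10 per the submitters' processing notes; the sources used here do not give versions, aligner or annotation. Symbols were matched for 25275 identifiers and not for 1904, and 2 of 1019 list symbols had no match. edgeR 4.0.16 (R 4.3.3) fitted all 18 libraries with 1 mean per group, after filterByExpr and TMM scaling, and glmQLFTest p-values were adjusted by Benjamini-Hochberg over 16466 genes at 0.05. CPM, log2 fold changes (KO against WT) and standard errors were computed from that fit. Differences between populations were interactions. Each mouse gave all 3 populations per the labels, and libraries of 1 mouse deviated together (r of 0.095 to 0.311). Mice differed between genotypes. The fit has no term for the mouse and estimates the spread from the libraries of all 3 populations. Its p-values therefore do not measure the spread between the ML libraries alone.

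Members and lists were chosen with earlier results of these data known. Text names Brca2 and Trp53, the 12 largest called rises and falls among genes that reach 2 CPM in the higher group without overlap of the groups (predicted genes, olfactory and antigen receptor genes left out), for each list the 4 tested genes lowest in p, with fixed identity genes, and 5 genes per interaction; others were chosen after their values were seen. Alternatives were RLE scaling, no filter, DESeq2 1.42.0, limma 3.58.1 voom, leaving out each ML library, thinning, the 6 ML libraries alone, replicate blocks and robust spread. Promoter windows are the 250 bases before the first listed RefSeq start (GRCm38.p6), found for 12237 of the genes tested.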

Additional observations from a re-analysis of the deposited data

Results flagged for a closer look

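Each gene here was set apart because the KO against WT change in ML cells differed from that in LP or basal cells by the test of the difference itself (edgeR's interaction, adjusted p under 0.05). Values are the ML log2 fold change minus that of the other population. Among basal keratin, hemidesmosome and desmosome genes the difference was 5.41 against LP and 6.16 against basal cells for Krt5, 4.74 against LP and 7.01 against basal cells for Krt14, 6.92 against LP and 7.07 against basal cells for Col17a1, and 11.46 against LP and 9.93 against basal cells for Dsc3. Among matrix genes it was 4.97 against LP and 6.83 against basal cells for Ccn2, 7.95 against LP and 7.77 against basal cells for Col12a1, 6.47 against LP and 3.37 against basal cells for Lama3, 5.31 against LP and 4.83 against basal cells for Col9a3, and 5.53 against LP and 7.17 against basal cells for Col14a1. The adhesion and guidance genes had 5.83 against LP and 6.42 against basal cells for Sema6a and 4.38 against LP and 4.17 against basal cells for Cadm1. The progenitor genes Kit and Elf5 had 4.48 and 3.47 against LP.

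Genes with no count in ML WT libraries had the largest fitted differences, which depend on the prior count: 10.39 against LP and 10.71 against basal cells for Gfra1, 10.01 against LP and 11.42 against basal cells for Serpina3i, 9.78 against LP and 10.67 against basal cells for Slc4a4, and 9.11 against LP and 10.30 against basal cells for Adamts18. Dsc3 belongs to this group too. Genes more negative in ML than in basal cells were Prlr (-3.78), Foxa1 (-2.62), Col8a1 (-4.88), Adra1a (-3.13), Cdh13 (-3.00) and Coro6 (-2.71). Fndc5 was more negative in ML than in LP (-4.01). Trp53 differed by 2.02 against LP, as its fall was smaller in ML.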

How the results depend on the processing

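With 1 ML library left out, the genes called ranged from 1654 to 2297 in all, 1496 to 1902 higher and 92 to 395 lower. DESeq2 called 676 lower, and thinning to the smallest library left 224 lower, where each library holds fewer counts. The genotype effect in ML minus LP was called for 1727 genes by DESeq2 and for 1727 with the replicate block by mouse. The same replicate numbers in ML KO and ML WT belong to different mice, and their deviations did not go together (r of -0.014, -2.77e-04 and -0.076), so no pairing was used. The fit of the 6 ML libraries alone called 2100 genes, 1582 higher and 518 lower, and 1741 of the 2100 were also called in the fit of all 18. With the replicate block in the fit of the 6 ML libraries, 1449 genes were called, 1143 of them higher, and Cdh13 had an adjusted p of 0.0875. Single genes were recomputed under the alternatives for 228 genes only, not for all genes tested. Among these 228, the log2 fold change turned under some alternative in 11 genes and reached 0 in Lep. None of them was called in the fit of all 18 libraries. With 1 library left out, the log2 fold change ran from -6.35 to 0.34 for Tnfsf11 (highest without WT replicate 2, and called without KO replicate 1, adjusted p = 0.0421), from -2.56 to 1.47 for Cidec and from -4.65 to 0 for Lep (both highest without WT replicate 3), and Calca had 0.74 in limma voom. Brca2 had -0.11 without KO replicate 2 and -0.075 without WT replicate 1, and the others were Bax, Cxcl15, Irf1, Irf9, Mdm2, Sesn1 and Stat2. The cause was not tested. Trp53 stayed between -1.67 and -1.50 and called in all 14 alternatives, and Brca2 was called in none. RLE scaling, no filter on low counts, limma voom and robust spread (chosen after seeing the data) moved none of the counts over all genes by over 1.5 times. Of the list counts, limma voom moved milk genes called higher from 13 to 7 and mature luminal markers called lower from 9 to 14, and the other list counts that moved by over 1.5 times under these 4 were of 3 genes or fewer. Fos and Hes1 were called in the fit of the 6 ML libraries alone. Depth limits low genes, with 5973389 counts in the smallest ML library.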

Other observations

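Genes of stratified and cornifying epithelium were listed after values were seen, so their count follows from that choice and is a description only. In ML cells 15 of 23 tested rose and 0 fell, against 12.5% and 2.62% of all genes tested, with a median log2 fold change of 6.66. Members also rose in the other populations, 5 in LP (median 1.46) and 7 in basal cells (median 2.53). Over all 16466 genes tested, 1243 were called higher in LP and 407 in basal cells. Krt16, a keratin of activated epidermis, had 39.4, 106 and 29.5 CPM in the KO libraries and 3.96, 3.003 and 5.86 CPM in the WT libraries (adjusted p = 8.04e-04). Sbsn, suprabasin, had 69.1, 35.6 and 30.7 CPM in the KO libraries and 4.59, 6.26 and 7.83 CPM in the WT libraries (adjusted p = 2.27e-04), and Sprr1b, a cornified envelope precursor, had 1.69, 3.59 and 3.44 CPM in the KO libraries and 0, 0 and 0.0428 CPM in the WT libraries (adjusted p = 0.00163). Krt1, Krt10, Lor and Ivl, which mark terminal differentiation of skin, were not called.

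Fgfr2, Scnn1a and Fgg fell and Hmga2 rose; all 4 were named after their values were seen. Fgfr2, a fibroblast growth factor receptor, had 173, 357 and 428 CPM in the KO libraries and 1104, 1256 and 1086 CPM in the WT libraries (adjusted p = 0.00219). Scnn1a, a sodium channel subunit, had 46.3, 70.2 and 71.6 CPM in the KO libraries and 201, 373 and 199 CPM in the WT libraries (adjusted p = 4.20e-04). Hmga2, an architectural chromatin protein, had 1.59, 2.07 and 1.503 CPM in the KO libraries and 0, 0 and 0 CPM in the WT libraries (adjusted p = 6.17e-04). Fgg, the fibrinogen gamma chain, had 437, 770.4 and 428 CPM in the KO libraries and 2532, 2082 and 1644 CPM in the WT libraries (adjusted p = 0.00303). The KO and WT libraries did not overlap for any of the 4, as for 37.8% of all genes tested. With the replicate block in the fit of the 6 ML libraries, the Hmga2 call ended (adjusted p = 0.0522).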
